A study of Saccharomyces cerevisiae with 15 samples.

Results

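Antisense transcripts were examined at the yeast genes with no other gene of the deposited tables overlapping or close by on the opposite strand. A row of the antisense table, which holds the reads on the strand opposite to 1 annotated gene (here the host gene), was kept as a member when its mean count over the 15 libraries was at least 5 and no row of the sense or antisense tables on the other strand overlapped it or lay within 200 bp. This left 2390 of 5122 antisense rows. A further 905 rows reached the mean count but had an opposite-strand row overlapping or within 200 bp, and 1408 rows were free of such a row but had a mean count under 5. The RefSeq annotation, which also holds antisense RNA and other genes that the tables lack, places a gene on the opposite strand within that distance of some members, and without these 1858 of the 1915 members tested below are left. The antisense count itself chose the members, so their levels are given as a description. Just inside the count limit lay *SWD1* and *HIR1* with a mean of 5.0 and just outside it *RKI1* and *RKM1* with 4.933, while *SWH1* and *YDL063C* lay 201 bp from an opposite-strand row and *DDI1* and *UBP5* were left out at 200 bp.

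Antisense transcription in budding yeast often begins in the nucleosome-depleted region at the 3′ end of a gene, and many of its products are short-lived because the Nrd1-Nab3-Sen1 pathway terminates them early and the exosome degrades them. Set1, the catalytic subunit of COMPASS, methylates lysine 4 of histone H3 (H3K4), with trimethylation concentrated at the start of transcribed genes, and Jhd2 is the demethylase that removes the mark. Antisense transcription in yeast is best known at loci such as *PHO84*, *GAL10* and *IME4*, where it has been tied to repression of the gene on the other strand.

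Stranded total RNA was sequenced from 3 independent cultures of each of 5 strains grown in YPAD to mid-log phase, and the study asked how loss or gain of the H3K4 methyltransferase or loss of its demethylase changes transcription on either strand. The 4 mutants were *jhd2Δ* and *set1Δ*, each a KanMX replacement of the gene, and 2 strains that carried an *ADH1* promoter driving Flag-tagged *SET1* or Flag-tagged *SET1-G990E*, a hyperactive allele, on an integrated *URA3* plasmid, beside the endogenous *SET1*. They are called the *SET1* strain and the *SET1-G990E* strain here, and were compared with WT. All 5 strains, WT included, are *MATa* and lack both chromosomal H2A-H2B gene pairs, *hta1-htb1* and *hta2-htb2*, and live on a *CEN* plasmid with *HTA1-HTB1*. They also share the *lys2-128delta*, *his3* and *ura3-52* alleles.

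The sense counts of *SET1*, *JHD2* and the mating-type genes matched the strain labels. Sense counts of *SET1* were 33 to 46 in *set1Δ* and 35966 to 42631 in the overexpressing strains, against 822 to 908 in WT, and *JHD2* had 0 to 2 in *jhd2Δ* against 169 to 198 in WT. The a-cell genes *STE2*, *MFA1* and *MFA2* had at least 352 counts in every library, while the alpha-cell genes *STE3*, *MF(ALPHA)1* and *MF(ALPHA)2* had at most 98. The deleted *HTA2* and *HTB2* still had 39 to 80 and 62 to 119 counts, beside 3158 to 4932 at *HTA1* and 6120 to 9601 at *HTB1*. The source of these reads was not tested. The libraries held 6903094 to 8947346 sense and 72664 to 106762 antisense counts, of which 42528 to 68627 lay over members. Replicate 2 of *set1Δ* stood apart from the other *set1Δ* libraries at some glucose-regulated genes, where it lay nearer to WT. Its counts are shown beside the others below, and the number of members called in *set1Δ* without it is given with the calls.

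Short stretches of the loci that the results turn on are shown first. The RefSeq annotation holds 7 antisense RNA genes on the R64 (sacCer3) build, and 6 of them lie over 7 members. The first 120 bases are printed for *YNCM0001W*, which covers *PHO84* entirely and part of *TUB3*, and for *TBRT*, over *TAT1*, because members under these RNAs were called in the mutants. For 6 other members with large changes the last 150 bases of the host gene are printed as read on the antisense strand, so that the first 3 bases are the complement of the stop codon and an antisense transcript entering from the 3′ end would run through them from left to right. Capitals mark GTAAG and TCTTG, sequences which as RNA are bound by Nrd1 and Nab3. All come from the RefSeq genome.
*YNCM0001W*, chrXIII:23564-23683, plus strand: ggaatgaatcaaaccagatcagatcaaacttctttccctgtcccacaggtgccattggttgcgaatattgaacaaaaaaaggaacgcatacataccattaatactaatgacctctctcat
*TBRT*, chrII:376610-376729, plus strand: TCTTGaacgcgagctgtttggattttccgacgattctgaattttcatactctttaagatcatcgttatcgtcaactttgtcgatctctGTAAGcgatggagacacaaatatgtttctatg
*ISA1* antisense, chrXII:88006-88155, minus strand: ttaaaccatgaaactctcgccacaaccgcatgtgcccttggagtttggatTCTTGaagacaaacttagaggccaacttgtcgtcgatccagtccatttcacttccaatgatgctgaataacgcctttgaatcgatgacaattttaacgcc
*MTH1* antisense, chrIV:1014401-1014550, plus strand: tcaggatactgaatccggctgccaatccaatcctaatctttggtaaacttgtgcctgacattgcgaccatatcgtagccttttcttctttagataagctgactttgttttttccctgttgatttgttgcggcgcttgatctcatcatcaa
*HXT1* antisense, chrVIII:290913-291062, plus strand: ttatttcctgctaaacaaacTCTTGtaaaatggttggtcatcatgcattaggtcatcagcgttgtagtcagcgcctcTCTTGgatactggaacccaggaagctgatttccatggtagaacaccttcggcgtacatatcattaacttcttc
*MDH3* antisense, chrIV:315357-315506, plus strand: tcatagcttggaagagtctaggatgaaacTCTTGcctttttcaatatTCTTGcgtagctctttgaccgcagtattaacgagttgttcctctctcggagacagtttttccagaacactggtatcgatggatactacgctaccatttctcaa
*YKR043C* antisense, chrXI:520897-521046, plus strand: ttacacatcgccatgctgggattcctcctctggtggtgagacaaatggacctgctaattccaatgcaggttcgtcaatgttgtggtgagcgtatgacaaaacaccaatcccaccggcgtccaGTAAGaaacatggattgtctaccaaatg
*EAF1* antisense, chrIV:1191936-1192085, plus strand: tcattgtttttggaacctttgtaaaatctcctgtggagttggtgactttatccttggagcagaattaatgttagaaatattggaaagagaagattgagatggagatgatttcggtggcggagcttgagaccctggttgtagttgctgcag

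Over all 2390 members a window of 300 bases, 150 inside and 150 beyond the annotated end of the host gene, was searched for 5 motifs on both strands. GTAAG was found on the antisense strand in 20.5% of members' windows and in 19.7% of the windows of all 5122 rows. TCTTG was found there in 43.0% and 45.2%. TATAAA, the core of a TATA box, was in 50.1% of members' windows on either strand and in 51.3% of all, and AAAAAAA was in 43.9% and 44.4%. The motif TTACCCG, which is bound by Reb1, a factor that sets nucleosome-depleted regions and stops polymerase, was in 2.55% of members' windows and 2.25% of all. The Nrd1 and Nab3 motifs can share a base, the TATA and the adenine motifs can overlap by 3 bases, and the complement of the Reb1 motif can overlap the Nrd1 motif. Members whose next gene lay in the same orientation had TTACCCG in 3.56% of windows and those facing a convergent gene in 0.509%, and 2 of these sites are given with the motif in capitals. The first lies 16 bp beyond the end of *ZIP2* and the second inside the end of *SDS24*.
*ZIP2* site, chrVII:35217-35246, plus strand: agcaaggatcgTTACCCGgtaaactattta
*SDS24* site, chrII:652863-652892, minus strand: acaccgatcaacTTACCCGttctatattcc
A match is a letter string only, and the shares of members called in a mutant and of members called in none, 2.53% and 2.57% for TTACCCG, lay close together.

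Antisense levels of the members were low and spread widely. The median member had a mean of 11.4 antisense counts a library, 1011 members had a mean under 10, and 67 reached 100. Counts below are normalized to the effective antisense library sizes, with values scaled to the mean library, so that 1 unit is close to 1 read. Per kb of host gene the median was 8.34, the 10th percentile 2.90 and the 90th percentile 40.3. The antisense level was a median of 2.28% of the sense level of the same gene, and was above the sense level at 117 members and under 1% of it at 655. The 905 rows with an opposite-strand row nearby had a median of 10.9 counts per kb and 3.05% of sense.

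**Figure D1:**
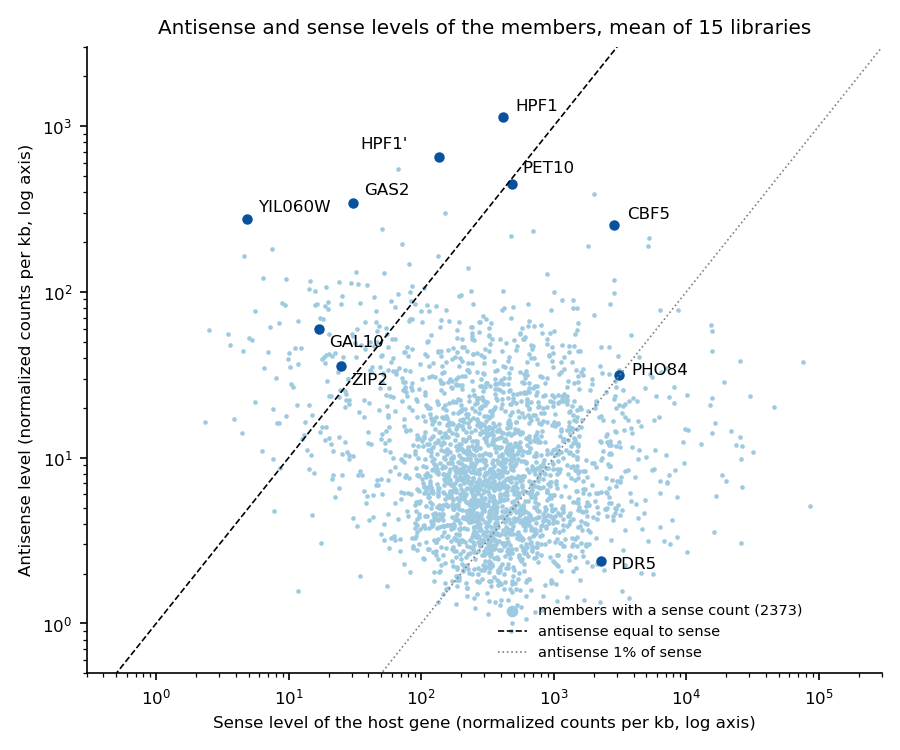
Each of 2373 members with sense counts is a point, with the sense level of its host gene on the x axis and its antisense level on the y axis, both in normalized counts per kb on log axes and as means of 15 libraries. Most points lie between the dotted line of 1% and the dashed line of equal levels, and *HPF1*, *GAS2* and *YIL060W* lie above the dashed line.

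The highest member per kb was *YLR264C-A*, a dubious reading frame of 117 bp with 7043 counts per kb, whose convergent neighbour *RPS28B*, a ribosomal protein gene whose mRNA has an unusually long 3′ end, lies 493 bp away. *HPF1*, which encodes a mannoprotein of the cell wall, followed with 1129 counts per kb, and its close relative *HPF1'* had 647.7. Reads may be shared between these near-identical genes, so both values are uncertain. *HPF1* alone held 5.68% of all antisense counts over members. Antisense levels were 342.0 counts per kb at *GAS2*, a sporulation-specific glucanosyltransferase, and 252.4 at *CBF5*, the pseudouridine synthase of box H/ACA particles. Antisense counts at *GAS2* were 1106% of its sense counts, whereas at *CBF5*, a highly expressed gene, they were 8.75%. Neither was called in any comparison.

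The members under annotated antisense RNAs differed in how they responded. *PHO84* (chrXIII:24037-25800, minus strand) encodes the high-affinity phosphate transporter, and *YNCM0001W* covers 100% of it. Its antisense counts were 15.5, 18.99 and 29.1 in *jhd2Δ*, 24.02, 38.5 and 32.2 in *set1Δ*, 76.7, 79.1 and 83.8 in the *SET1* strain, 73.96, 64.2 and 76.8 in the *SET1-G990E* strain, against 80.95, 62.5 and 79.3 in WT. Every *jhd2Δ* and *set1Δ* library lay below every WT library, and both overexpressing strains overlapped WT. The log2 fold change was -1.80 (SE 0.20, adjusted p = 4.0e-12) in *jhd2Δ* and -1.22 (SE 0.20, adjusted p = 6.6e-07) in *set1Δ*, and 0.11 and -0.05 in the *SET1* and *SET1-G990E* strains, where the test was not passed. Sense *PHO84* counts were 7252, 7505 and 7157 in *jhd2Δ* and 4659, 3955 and 4421 in *set1Δ*, against 3545, 3734 and 3341 in WT. The sense transcript rose in *jhd2Δ*, by a log2 fold change of 1.04, and also in the *SET1* strain (0.71) and the *SET1-G990E* strain (0.86), where the antisense counts did not pass the test.

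*TAT1* (chrII:376574-378433, minus strand), a permease for branched-chain and aromatic amino acids that lies under *TBRT*, moved in another set of strains. Its antisense counts were 39.3, 55.98 and 45.2 in *jhd2Δ*, 34.7, 20.5 and 34.7 in *set1Δ*, 49.4, 62.8 and 66.7 in the *SET1* strain, 65.7, 58.6 and 52.7 in the *SET1-G990E* strain, against 32.6, 25.4 and 25.2 in WT. All libraries of *jhd2Δ* and of both overexpressing strains lay above WT, and those of *set1Δ* overlapped WT. The log2 fold change was 1.11 (SE 0.20, adjusted p = 2.0e-05) in the *SET1* strain and 1.09 (SE 0.19, adjusted p = 8.6e-06) in the *SET1-G990E* strain, while the rise of 0.76 in *jhd2Δ* was lost without *jhd2Δ* replicate 2, WT replicate 2 or WT replicate 3. The other annotated RNAs showed no call. *GAL10*, an enzyme gene of galactose use that is repressed in glucose, had 109, 156 and 129.6 in *jhd2Δ*, 121, 169 and 152 in *set1Δ*, 119.7, 115 and 94.3 in the *SET1* strain, 116, 89.5 and 97.4 in the *SET1-G990E* strain, against 147, 139 and 136 in WT. The deletions overlapped WT, and the overexpressing strains lay below it with log2 fold changes of -0.36 in the *SET1* strain and -0.48 in the *SET1-G990E* strain, which were not called. *GAL4*, the activator of the galactose genes, had 116, 114 and 134 antisense counts in *jhd2Δ* and 111, 117 and 109 in *set1Δ*, against 123, 114 and 108 in WT. *ZIP2*, a meiotic synapsis gene facing *RME3*, and *SPS100*, a spore wall gene facing *SUT169*, were not called either. *TUB3*, the minor alpha-tubulin gene, had too few antisense counts to be tested.

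Summed over all members, antisense reads made up a smaller share in *set1Δ*. The members had 1.74, 1.70 and 1.76 antisense counts per 100 sense counts of their host genes in *jhd2Δ*, with a mean of 1.74 ± 0.029 (SD, n = 3). The mean was 1.501 ± 0.050 in *set1Δ*, 1.74 ± 0.042 in the *SET1* strain and 1.88 ± 0.064 in the *SET1-G990E* strain, against 1.81 ± 0.031 in WT. Each library of *jhd2Δ*, *set1Δ* and the *SET1* strain lay below each WT library, and the *SET1-G990E* strain overlapped WT. Over all antisense rows, per 100 counts of all sense rows, the values were 1.053, 1.059 and 1.027 in *set1Δ* and 1.17, 1.177 and 1.149 in *jhd2Δ*. They were 1.159, 1.172 and 1.189 in the *SET1* strain, against 1.204, 1.201 and 1.192 in WT. The lower share was thus not particular to the members. No test was run on these sums. Without the 10 members of highest antisense count *jhd2Δ* and the *SET1* strain both overlapped WT, with means of 1.49 in *jhd2Δ* and 1.53 in the *SET1* strain, against 1.53 in WT, and *set1Δ*, with a mean of 1.28, still lay below. The members took 60.7% of all antisense counts in *set1Δ* and 63.6% in WT, and fewer antisense reads and more sense reads cannot be told apart from this ratio.

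**Figure D2:**
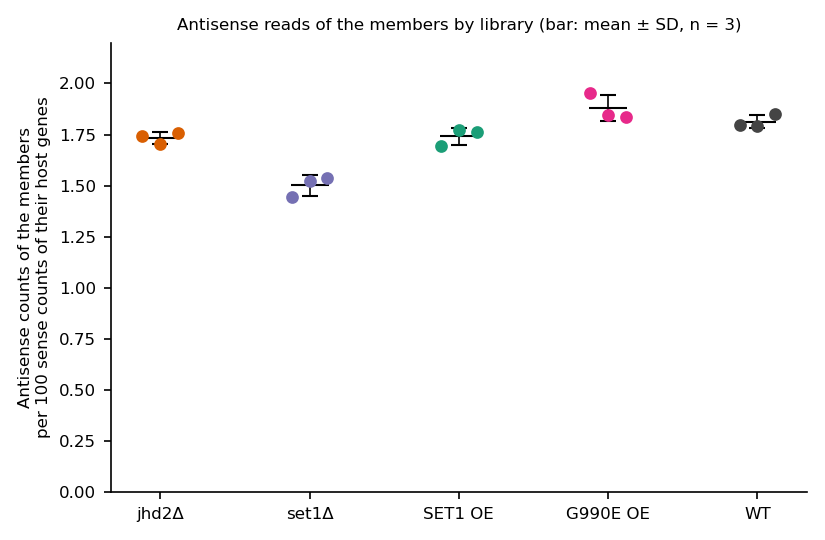
Antisense counts of the 2390 members per 100 sense counts of their host genes (y axis, from 0) in each of 15 libraries, grouped by strain on the x axis, with the mean and SD of 3 libraries as bars. The 3 *set1Δ* libraries, at 1.44 to 1.53, lie below all others.

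For each mutant, antisense counts of the members were tested against WT with edgeR in a fit over all antisense rows, with p-values adjusted over the 2640 rows that passed the filter on low counts. A member was called at an adjusted p below 0.05 and a change of at least 1.5-fold. Of the 2390 members, 1915 passed the filter and 475 did not. In *jhd2Δ* antisense rose at 59 members and fell at 75, that is 7.0% of the tested members beside 6.21% of all tested rows. In *set1Δ* it rose at 139 and fell at 116 (13.3%, beside 12.4% of all rows). In the *SET1* strain it rose at 29 and fell at 54 (4.33%, beside 3.52%), and in the *SET1-G990E* strain it rose at 80 and fell at 58 (7.21%, beside 6.74%). Members make up most of the tested rows, so these shares could not lie far apart. Some called members passed the filter on low counts only through the strain in which they were high. They were 3 falls in *jhd2Δ*, 20 rises and 4 falls in *set1Δ*, and 2 rises and 1 fall in the *SET1-G990E* strain. Leaving out *set1Δ* replicate 2 left 208 members called in *set1Δ*. In the *SET1* strain, 50, 53 and 43 members were called without *SET1* replicate 1, 2 or 3 and 50 without WT replicate 2. DESeq2 called fewer members, 62 in *jhd2Δ*, 132 in *set1Δ*, 34 in the *SET1* strain and 73 in the *SET1-G990E* strain. DESeq2 gave no adjusted p to many members. Those described below without one are *MDH3* in *jhd2Δ* and both overexpressing strains, and *HXT1*, *YLR179C* and *KEL2* in *jhd2Δ* and the *SET1* strain. The others are *HXT4* in *jhd2Δ* and the *SET1-G990E* strain, *ISA1*, *PDR5* and *JHD2* in *jhd2Δ* and *YGR146C-A* in the *SET1* strain. Calls described below that DESeq2 tested and did not make are *SAM3* in 3 mutants, *YLR179C*, *PHO85* and *BAP2* in *set1Δ*, *HXT13* in the *SET1* strain, *HXT3* and *YKR043C* in the *SET1-G990E* strain and *TAT1* in *set1Δ* against *jhd2Δ*, with adjusted p between 0.051 and 0.18.

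By direction, the background over all tested rows was 2.8% up and 3.41% down in *jhd2Δ*, 7.05% and 5.38% in *set1Δ*, 1.17% and 2.35% in the *SET1* strain, and 3.56% and 3.18% in the *SET1-G990E* strain. Among the 725 tested rows that lie beside an opposite-strand row, 4.14% were called in *jhd2Δ*, 10.1% in *set1Δ*, 1.38% in the *SET1* strain and 5.52% in the *SET1-G990E* strain, lower than at the members each time, and this difference was not tested. The split into rises and falls depends on the scale. When antisense counts were instead scaled by the sense library sizes, the members' median log2 fold change shifted to -0.30 in *set1Δ*, -0.12 in *jhd2Δ*, -0.03 in the *SET1* strain and 0.08 in the *SET1-G990E* strain, with 72 rises and 272 falls in *set1Δ* and 43 rises and 116 falls in *jhd2Δ*. All changes below are relative to the antisense library.

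**Figure D3:**
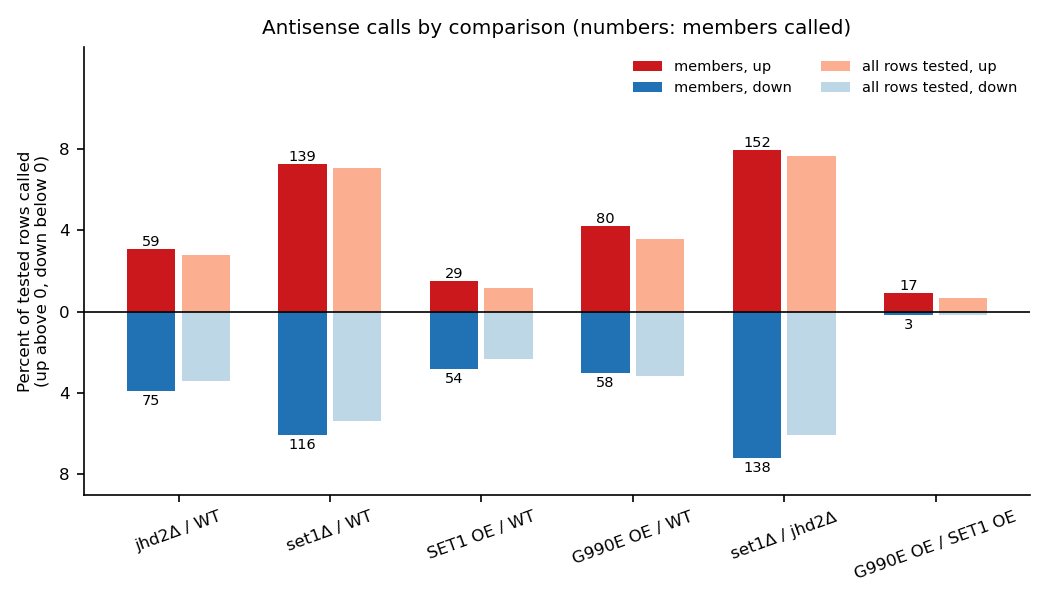
Bars give the percent of tested rows called as up (above 0) or down (below 0) in each of 6 comparisons on the x axis, with the members in dark colours on the left of each pair, all 2640 tested antisense rows in light colours on the right, and the number of members called printed at the bar ends. The bars of *set1Δ*, against WT or *jhd2Δ*, are the longest, and those of *SET1-G990E* set against *SET1* the shortest.

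In all, 435 of 1915 tested members (22.7%) were called in at least 1 mutant and 1480 in none. The matching share over all tested rows was not counted, nor was that of rows called the same way in all 4 mutants. Neither number can therefore be read as particular to the members. Antisense was lower in all 4 mutants at *MDH3*, *OPI1*, *LCL1* and *YLR179C* and higher in all 4 at *YLR264C-A*. These comparisons share the WT libraries, and the values of each are given side by side. *MDH3* (chrIV:315357-316388, minus strand) encodes peroxisomal malate dehydrogenase. Its antisense counts were 8.28, 6.998 and 9.04 in *jhd2Δ*, 10.7, 11.6 and 13.6 in *set1Δ*, 7.35, 5.42 and 6.67 in the *SET1* strain, 11.6, 9.76 and 8.04 in the *SET1-G990E* strain, against 34.5, 29.9 and 22.5 in WT. Each of the 12 mutant libraries lay below each WT library. The log2 fold change was -1.82 (SE 0.31, adjusted p = 2.8e-06) in *jhd2Δ*, -1.26 (SE 0.30, adjusted p = 0.0011) in *set1Δ*, -2.13 (SE 0.33, adjusted p = 2.1e-07) in the *SET1* strain and -1.54 (SE 0.28, adjusted p = 1.5e-05) in the *SET1-G990E* strain. The sense transcript of *MDH3* was not called in any of them.

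*OPI1* (chrVIII:66242-67456, minus strand) encodes the repressor of phospholipid synthesis genes. Antisense counts were 26.9, 32.99 and 30.1 in *jhd2Δ*, 20.02, 23.1 and 26.02 in *set1Δ*, 14.7, 17.3 and 15.2 in the *SET1* strain, 21.6, 16.3 and 14.3 in the *SET1-G990E* strain, against 48.4, 66.1 and 40.6 in WT. No mutant library reached the WT range. The log2 fold change was -1.71 (SE 0.23, adjusted p = 5.9e-09) in the *SET1* strain, -1.56 in the *SET1-G990E* strain, -1.16 in *set1Δ* and -0.78 in *jhd2Δ*, where the call was lost without WT replicate 2. At *LCL1* (chrXVI:453430-453735, minus strand), a small gene named for long chronological lifespan, antisense counts were 199% of sense counts. They were 68.3, 65.98 and 83.4 in *jhd2Δ*, 61.4, 100.1 and 79.3 in *set1Δ*, 61.97, 79.1 and 76.2 in the *SET1* strain, 87.2, 65.9 and 68.8 in the *SET1-G990E* strain, against 178, 138 and 162 in WT, with a log2 fold change between -1.13 in *jhd2Δ* and -0.98 in *set1Δ*. *YLR179C*, a gene of unknown function, had log2 fold changes of -0.77, -0.80, -0.90 and -1.15 in *jhd2Δ*, *set1Δ*, the *SET1* strain and the *SET1-G990E* strain. The first 3 of these calls were each lost without at least 4 single libraries, among them WT replicates 1 and 3, and the fall in the *SET1-G990E* strain was kept without any 1 library.

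The rise at *YLR264C-A* (chrXII:673828-673944, minus strand) was seen at a high count. There were 981, 1128 and 802 in *jhd2Δ*, 1060, 712 and 891 in *set1Δ*, 953, 772 and 952 in the *SET1* strain, 846, 875 and 798 in the *SET1-G990E* strain, against 546, 539 and 507 in WT. The log2 fold changes were 0.87, 0.74, 0.75 and 0.66 in *jhd2Δ*, *set1Δ*, the *SET1* strain and the *SET1-G990E* strain, and the call in *set1Δ* was lost on the sense library scale. The sense counts of *RPS28B*, which is transcribed towards this row, had log2 fold changes of 0.90, 0.53, 0.78 and 0.81 in the same order, called in all but *set1Δ*. Reads from the long end of *RPS28B* and a separate antisense transcript cannot be told apart here.

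**Figure D4:**
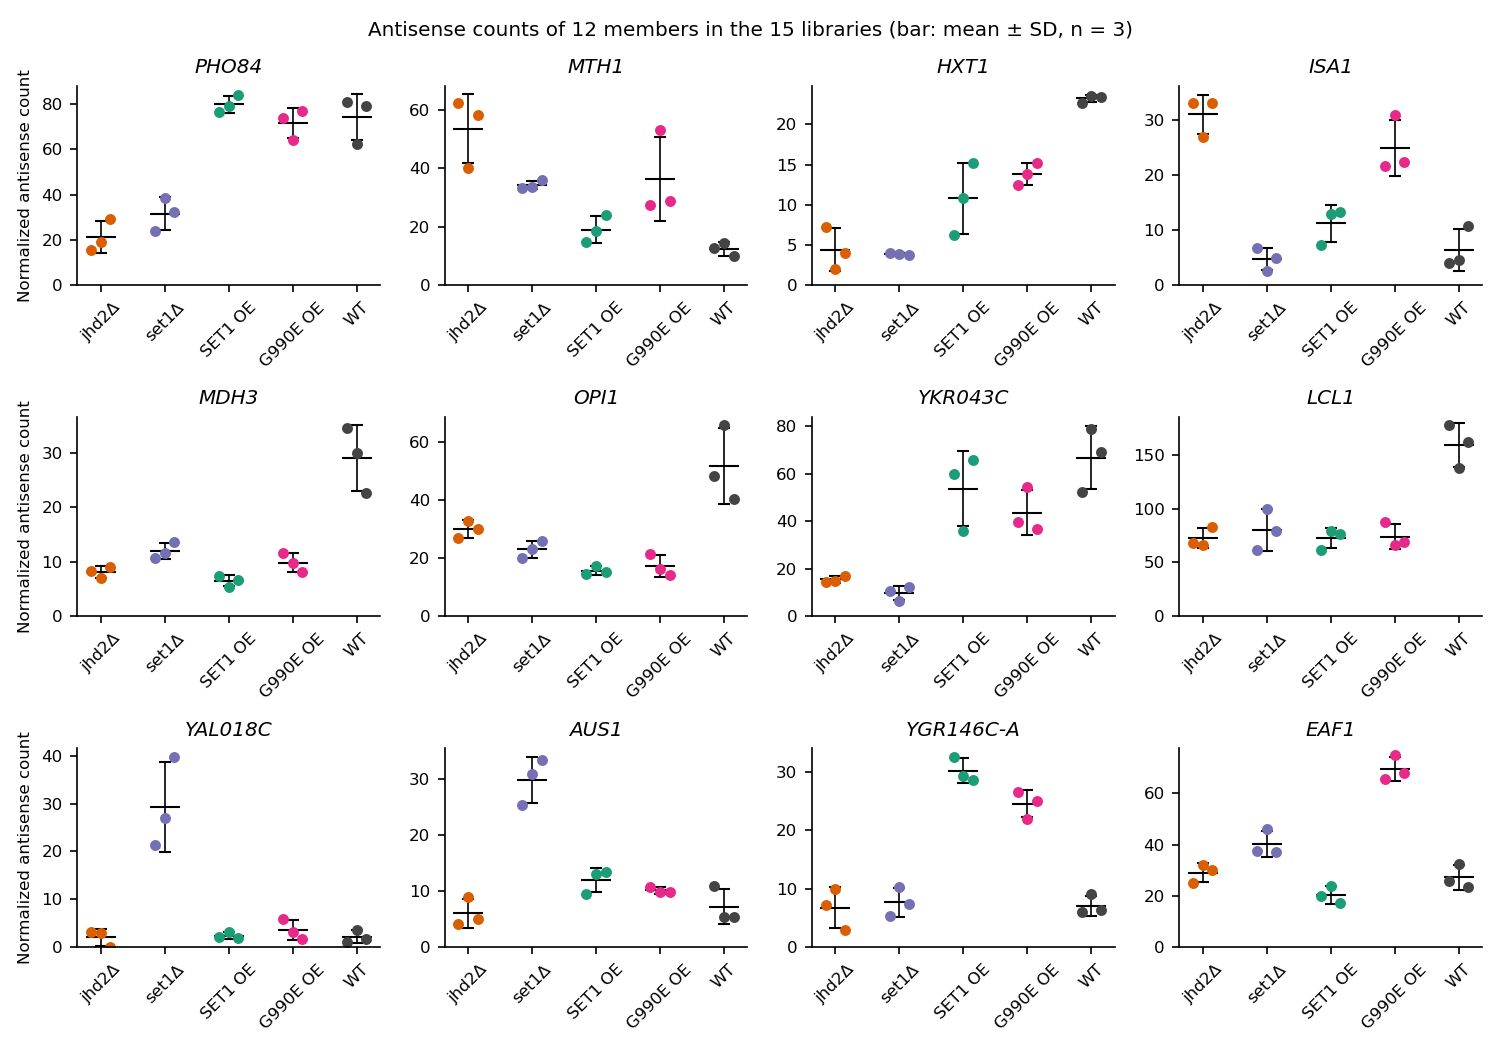
Normalized antisense counts (y axis, from 0) of 12 members in each of 15 libraries, by strain on the x axis, with the mean and SD of 3 libraries as bars. *MDH3*, *OPI1* and *LCL1* have every mutant library below WT, *PHO84* and *YKR043C* are low in the 2 deletions, *YAL018C* and *AUS1* are high in *set1Δ* and *EAF1* is high in the *SET1-G990E* strain.

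Hexose transporter and glucose sensing genes, which yeast switches according to the external glucose level, held members that moved both ways. Of 20 tested members of this list, 2 rose and 5 fell in *jhd2Δ*, 3 rose and 4 fell in *set1Δ*, 3 fell in the *SET1* strain, and 2 rose and 3 fell in the *SET1-G990E* strain. The median log2 fold change of the list was -0.17, -0.25, -0.27 and -0.34 in that order, beside -0.02, -0.05, -0.01 and 0.02 over all tested members. *MTH1* (chrIV:1014401-1015702, minus strand), a co-repressor of hexose transporter genes in low glucose, had 62.1, 39.99 and 58.3 in *jhd2Δ*, 33.4, 33.4 and 35.9 in *set1Δ*, 14.7, 18.4 and 23.8 in the *SET1* strain, 27.4, 52.9 and 28.6 in the *SET1-G990E* strain, against 12.8, 14.5 and 9.92 in WT. All libraries of *jhd2Δ*, *set1Δ* and both overexpressing strains lay above WT. This gave a log2 fold change of 2.09 (SE 0.25, adjusted p = 2.3e-11) in *jhd2Δ*, 1.46 (SE 0.29, adjusted p = 5.2e-05) in *set1Δ* and 1.55 (SE 0.26, adjusted p = 2.6e-06) in the *SET1-G990E* strain, and 0.62 in the *SET1* strain, not called. Sense *MTH1* counts were 923, 883 and 961 in *jhd2Δ*, 1282, 2215 and 1314 in *set1Δ*, 867, 919.8 and 856 in the *SET1* strain and 878, 814 and 917 in the *SET1-G990E* strain, against 3047, 2744 and 2376 in WT. The sense transcript was called as lower in all 4 mutants, the *SET1* strain included, and *set1Δ* replicate 2 lay between the other *set1Δ* libraries and WT.

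*HXT1* (chrVIII:290913-292625, minus strand), the low-affinity transporter induced by high glucose, went the other way. The antisense strand had 7.25, 1.999 and 4.02 in *jhd2Δ*, 4.003, 3.85 and 3.72 in *set1Δ*, 6.302, 10.8 and 15.2 in the *SET1* strain, 12.5, 13.8 and 15.2 in the *SET1-G990E* strain, against 22.7, 23.6 and 23.4 in WT. None of the mutant libraries reached the WT values. The antisense log2 fold change was -2.37 (SE 0.38, adjusted p = 6.4e-07) in *jhd2Δ* and -2.55 (SE 0.42, adjusted p = 9.6e-07) in *set1Δ*. It was -0.75 in the *SET1-G990E* strain, not called, and -1.08 in the *SET1* strain, a call lost without any 1 of the 3 WT libraries or of *SET1* replicates 1 and 2. At *HXT3* (chrIV:1162957-1164660, minus strand), another low-affinity transporter, there were 14.5, 14.99 and 23.1 in *jhd2Δ*, 33.4, 55.2 and 29.7 in *set1Δ*, 53.6, 39 and 40.01 in the *SET1* strain, 34.1, 29.3 and 37.5 in the *SET1-G990E* strain, against 61.2, 48.02 and 50.5 in WT. Antisense fell in *jhd2Δ* by a log2 fold change of -1.59 (SE 0.23, adjusted p = 3.9e-08). In *set1Δ*, where the value was -0.43, it was not called and replicate 2 lay within the WT range. In the *SET1-G990E* strain the value was -0.66, a call lost without *SET1-G990E* replicate 2 or WT replicate 1. *HXT4*, a high-affinity transporter, had few antisense counts, with 19.7, 11 and 4.02 in *jhd2Δ* and 11.6, 14.6 and 8.94 in the *SET1-G990E* strain, against 2.96, 4.53 and 3.61 in WT. Its values on the log2 scale, 1.59 in *jhd2Δ* and 1.63 in the *SET1-G990E* strain, were called, and the calls were lost without *jhd2Δ* replicate 1 or 2 or WT replicate 1 or 3 in the first case and without *SET1-G990E* replicate 2 in the second. The hexose transporter genes resemble each other in sequence, and reads may be split among them.

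Members of the family with antisense counts close to or above sense counts also changed. *HXT13* (chrV:21537-23231, minus strand), a polyol transporter in a subtelomeric region, had 57.3, 53.7 and 52.7 in the *SET1-G990E* strain, against 92.8, 114 and 106 in WT. The change there on the log2 scale was -0.94 (SE 0.16, adjusted p = 2.3e-06). It was also called as lower in *jhd2Δ* (-0.69), lost without *jhd2Δ* replicate 1, and in the *SET1* strain (-0.63), lost without *SET1* replicate 1 or 3 or WT replicate 2. *HXT10*, another hexose transporter gene, rose in *set1Δ*, with 33.4, 44.9 and 45.8 in *set1Δ* against 16.8, 14.5 and 20.7 in WT, a log2 fold change of 1.25 (SE 0.25, adjusted p = 5.9e-05). Its sense counts rose there too, by 0.86. *HXT5*, induced when growth slows, had 167, 128 and 145 in the *SET1* strain against 233, 232 and 234 in WT, a log2 fold change of -0.67 (SE 0.12, adjusted p = 2.0e-05) that was lost without *SET1* replicate 2.

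Among phosphate genes, 14 members were tested and *PHO84* was the single call in *jhd2Δ*, while in *set1Δ* 1 rose and 2 fell, and in the *SET1* strain 1 rose. The list medians were -0.10, -0.11, -0.02 and -0.05 in *jhd2Δ*, *set1Δ*, the *SET1* strain and the *SET1-G990E* strain. The rise in *set1Δ* was *GIT1* (chrIII:297049-298605, minus strand), a transporter of glycerophosphodiesters, with 22.7, 26.96 and 18.6 in *set1Δ*, against 2.96, 2.72 and 6.31 in WT. The log2 fold change was 2.46 (SE 0.42, adjusted p = 2.3e-06). *GIT1* reached the mean count of 5 and passed the filter on low counts only through the *set1Δ* libraries, so its values are a description. *PHO5*, the repressible acid phosphatase, had 37.4, 30.8 and 30.97 in *set1Δ*, 69.3, 68.3 and 62.9 in the *SET1* strain, against 34.5, 46.2 and 36.97 in WT. Its antisense rose in the *SET1* strain by 0.76 (SE 0.18, adjusted p = 0.0033) and was not called in *set1Δ*, where its sense transcript had a log2 fold change of 2.12. *PHO5* and its tandem neighbour *PHO3* are close copies, and reads may be split between them. The second fall in *set1Δ* was at *PHO85*, the cyclin-dependent kinase of phosphate signalling, with a log2 fold change of -0.87 (SE 0.27, adjusted p = 0.015), lost without *set1Δ* replicate 3 or WT replicate 1. *PHO89*, the sodium-phosphate cotransporter, and *KCS1*, an inositol polyphosphate kinase with a described antisense RNA, were not called against WT.

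Permeases of amino acids, peptides and bases gave 24 tested members, of which 2 rose and 3 fell in *jhd2Δ*, 5 rose and 3 fell in *set1Δ*, and 2 rose in each overexpressing strain. The list medians were -0.23, 0.12, -0.09 and -0.08 in that order. The rises in *jhd2Δ* and in both overexpressing strains were at *TAT1* and *SAM3*, a high-affinity S-adenosylmethionine permease. *SAM3* had 43.5, 37.99 and 41.2 in *jhd2Δ*, 40.96, 46.6 and 36.2 in the *SET1* strain, 44.04, 31.7 and 40.2 in the *SET1-G990E* strain, against 24.7, 21.7 and 27.9 in WT, with log2 fold changes of 0.72 in *jhd2Δ*, 0.72 in the *SET1* strain and 0.64 in the *SET1-G990E* strain. Each of its 3 calls was lost without WT replicate 1 or 2 or either of 2 libraries of the mutant itself. *BAP2*, the leucine permease next to *TAT1*, fell in both deletions (-0.90 in *jhd2Δ* and -0.78 in *set1Δ*), whereas *TAT1* antisense rose in *jhd2Δ*. The *BAP2* call in *set1Δ* was lost without *set1Δ* replicate 1 or 2. *MMP1*, which takes up S-methylmethionine, had 93.2, 94.97 and 108 in *jhd2Δ*, against 144, 193 and 182 in WT, a log2 fold change of -0.81 (SE 0.13, adjusted p = 7.7e-07). *OPT1* and *OPT2*, both of the oligopeptide transporter family, moved in opposite directions in *set1Δ*. At *OPT1* there were 70.7, 53.9 and 80.5 in *set1Δ*, against 30.6, 40.8 and 31.6 in WT, a log2 fold change of 0.99 (SE 0.19, adjusted p = 4.7e-05). At *OPT2* there were 125, 122 and 112 in *set1Δ*, against 196, 209 and 212 in WT, a log2 fold change of -0.78 (SE 0.13, adjusted p = 8.0e-07), and the sense transcript of *OPT2* was called as higher, by 1.72.

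ABC and drug transporters gave 28 tested members, with 2 falls in *jhd2Δ*, in the *SET1* strain and in the *SET1-G990E* strain and with 3 rises and 2 falls in *set1Δ*. The list medians were -0.14 in *jhd2Δ*, 0.09 in *set1Δ*, 0.00 in the *SET1* strain and -0.06 in the *SET1-G990E* strain. *PDR5* (chrXV:619840-624375, plus strand), the main multidrug efflux pump, was among the most abundant host genes, and its antisense counts were 0.111% of sense. They were 4.14, 6.998 and 5.02 in *jhd2Δ*, 1.33, 2.57 and 2.48 in *set1Δ*, against 13.8, 13.6 and 14.4 in WT. On the log2 scale the change was -2.64 (SE 0.53, adjusted p = 7.9e-05) in *set1Δ* at 1 to 2 reads a library, and -1.35 in *jhd2Δ*, a call lost without *jhd2Δ* replicate 1 or 3 or WT replicate 3. *AUS1* (chrXV:349679-353863, plus strand), a sterol importer used without oxygen, had 4.14, 8.997 and 5.02 in *jhd2Δ*, 25.4, 30.8 and 33.5 in *set1Δ*, 9.45, 13 and 13.3 in the *SET1* strain, 10.8, 9.76 and 9.83 in the *SET1-G990E* strain, against 10.9, 5.44 and 5.41 in WT. The 3 *set1Δ* libraries lay above all others and the log2 fold change was 2.05 (SE 0.33, adjusted p = 6.5e-07). *YCF1*, the vacuolar transporter of glutathione conjugates, had 91.4, 83.4 and 81.9 in the *SET1* strain against 171, 156 and 162 in WT, a log2 fold change of -0.93 (SE 0.14, adjusted p = 1.1e-07).

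Some of the large rises in *set1Δ* were at members with very few antisense reads in the other strains. Of the 139 members that rose, 20 passed the filter on low counts only through the *set1Δ* libraries, *YAL018C*, *YBR200W-A*, *GIT1* and *DAN1* among them, so that a low count elsewhere was in part set by the choice of members, and their values are a description. *YAL018C* (chrI:118564-119541, minus strand), a gene of unknown function, had 3.11, 2.999 and 0 in *jhd2Δ*, 21.4, 26.96 and 39.6 in *set1Δ*, 2.101, 3.25 and 1.91 in the *SET1* strain, 5.82, 3.25 and 1.79 in the *SET1-G990E* strain, against 0.987, 3.62 and 1.803 in WT. The log2 fold change in *set1Δ* was 3.69 (SE 0.47, adjusted p = 3.0e-10), and the sense transcript rose by 0.90. *YBR200W-A*, a short frame of unknown function, had 18.7, 14.1 and 30.97 in *set1Δ*, against 2.96, 1.81 and 1.803 in WT, a log2 fold change of 3.23 (SE 0.51, adjusted p = 3.9e-07). *YCT1*, a cysteine transporter, had 16.01, 23.1 and 30.97 in *set1Δ*, against 3.95, 1.81 and 7.21 in WT, a log2 fold change of 2.41 (SE 0.41, adjusted p = 1.9e-06), and at *DAN1*, a cell wall mannoprotein of anaerobic cells, both strands rose, by 2.09 antisense and 2.00 sense. *GIT1*, described above, lies near the right end of chromosome III. Of 55 tested members within 20000 bp of a chromosome end, 13 rose and 5 fell in *set1Δ* (32.7%), while 126 rose and 111 fell of the other 1860 (12.7%). Members that passed the filter only through the *set1Δ* libraries, such as *GIT1*, are included in these rises. Their number in each class was not counted, so the share that the choice of members set is not known. In *jhd2Δ* the shares were 7.27% and 6.99%, in the *SET1* strain 1.82% and 4.41% and in the *SET1-G990E* strain 9.09% and 7.15%. Antisense was a median of 9.86% of sense in the class near the ends and 2.21% elsewhere, and the difference in calls between the 2 classes was not tested.

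Large falls in *set1Δ* were seen at *YKR043C*, *ADH6* and *BAR1*. *YKR043C* (chrXI:520897-521712, minus strand), also called *SHB17*, encodes a sedoheptulose bisphosphatase and faces *UTH1* at a distance of 272 bp. It had 14.5, 14.99 and 17.1 in *jhd2Δ*, 10.7, 6.42 and 12.4 in *set1Δ*, 59.9, 35.8 and 65.7 in the *SET1* strain, 39.9, 54.5 and 36.6 in the *SET1-G990E* strain, against 52.3, 78.8 and 69.4 in WT. Both deletions lay far below WT. This gave a log2 fold change of -2.10 (SE 0.23, adjusted p = 8.9e-13) in *jhd2Δ* and -2.75 (SE 0.27, adjusted p = 3.2e-15) in *set1Δ*, and neither the sense transcript of *YKR043C* nor that of *UTH1* was called in any mutant. In the *SET1-G990E* strain the value was -0.61, a call lost without *SET1-G990E* replicate 1 or 3 or WT replicate 2. *ADH6* (chrXIII:911061-912143, minus strand), a NADPH-dependent alcohol dehydrogenase, had 30.02, 33.99 and 40.2 in *jhd2Δ*, 9.34, 6.42 and 7.43 in *set1Δ*, against 40.5, 49.8 and 44.2 in WT. Of the 4 mutants only *set1Δ* passed the test, with a log2 fold change of -2.52 (SE 0.30, adjusted p = 1.5e-11) against -0.37 in *jhd2Δ*. *BAR1*, the protease that degrades alpha-factor, had 4.003, 2.57 and 0 in *set1Δ*, against 8.88, 15.4 and 14.4 in WT, a log2 fold change of -2.53 (SE 0.57, adjusted p = 4.1e-04) with 0 to 3 reads in *set1Δ*. *HMS2*, a gene with a described antisense transcript, had 37.4, 28.2 and 38.4 in *set1Δ*, against 79.97, 65.2 and 55.9 in WT, a log2 fold change of -0.94 (SE 0.20, adjusted p = 1.9e-04).

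In *jhd2Δ* and the *SET1-G990E* strain antisense rose at *ISA1* (chrXII:87403-88155, plus strand), which encodes a mitochondrial iron-sulfur cluster assembly protein. Antisense counts were 33.1, 26.99 and 33.1 in *jhd2Δ*, 6.67, 2.57 and 4.96 in *set1Δ*, 7.35, 13 and 13.3 in the *SET1* strain, 21.6, 30.9 and 22.3 in the *SET1-G990E* strain, against 3.95, 4.53 and 10.8 in WT. The antisense log2 fold change was 2.23 (SE 0.32, adjusted p = 2.7e-08) in *jhd2Δ* and 1.92 (SE 0.32, adjusted p = 2.6e-06) in the *SET1-G990E* strain, and 0.78 in the *SET1* strain and -0.46 in *set1Δ*, both not called and overlapping WT. The sense transcript of *ISA1* stayed within -0.04 and 0.17 on the log2 scale over the 4 mutants. *SOL4*, a 6-phosphogluconolactonase, had 57.97, 60.98 and 102 in *jhd2Δ*, against 38.5, 28.99 and 21.6 in WT, a log2 fold change of 1.32 (SE 0.20, adjusted p = 1.2e-07), and its sense transcript was called as lower there (-0.65). *NOP58*, a core protein of box C/D particles in ribosome biogenesis, had 199, 234 and 239 in *jhd2Δ*, against 148, 91.5 and 139.8 in WT, a log2 fold change of 0.83 (SE 0.13, adjusted p = 2.2e-07). *KEL2*, a kelch-repeat protein in mating and mitosis, had 21.6, 28.5 and 25.02 in the *SET1-G990E* strain, against 6.91, 7.25 and 6.31 in WT. Its log2 fold change there was 1.86 (SE 0.32, adjusted p = 4.4e-06). *KEL2* was also called as higher in *jhd2Δ* (1.29), lost without *jhd2Δ* replicate 1, and in the *SET1* strain (1.25). The call in the *SET1* strain was lost without *SET1* replicate 1 or 3 or any 1 of the WT libraries.

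A pair of members that fell in *jhd2Δ* and both overexpressing strains lay on either side of *YFL052W* on chromosome VI. *DAK2* (chrVI:23423-25198, plus strand), a dihydroxyacetone kinase, had 55.9, 95.97 and 57.3 in *jhd2Δ*, 179, 193 and 140.0 in *set1Δ*, 79.8, 72.6 and 73.3 in the *SET1* strain, 71.5, 78.1 and 67.01 in the *SET1-G990E* strain, against 172, 152 and 157 in WT. Every library of *jhd2Δ* and of the overexpressing strains lay below both WT and *set1Δ*. On the log2 scale the change was -1.20 (SE 0.14, adjusted p = 3.3e-11) in *jhd2Δ*, -1.09 in the *SET1* strain and -1.15 in the *SET1-G990E* strain, and 0.09 in *set1Δ*, not called. *YFL051C* (chrVI:30058-30540, minus strand), a flocculin-like gene, had 26.9, 33.99 and 29.1 in *jhd2Δ*, 52.05, 112 and 50.8 in *set1Δ*, 29.4, 32.5 and 34.3 in the *SET1* strain, 18.3, 32.5 and 33.1 in the *SET1-G990E* strain, against 106, 109.6 and 75.8 in WT. This gave a log2 fold change of -1.68 (SE 0.19, adjusted p = 6.3e-12) in *jhd2Δ*, -1.59 in the *SET1* strain and -1.79 in the *SET1-G990E* strain, and -0.44 in *set1Δ*, where the call was not made and *set1Δ* replicate 2 reached WT values.

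Among the rises in both overexpressing strains was *YGR146C-A* (chrVII:785276-785437, minus strand), a short frame of unknown function. It had 7.25, 10 and 3.01 in *jhd2Δ*, 5.34, 10.3 and 7.43 in *set1Δ*, 32.6, 29.2 and 28.6 in the *SET1* strain, 26.6, 21.96 and 25.02 in the *SET1-G990E* strain, against 5.92, 9.06 and 6.31 in WT. Both overexpressing strains lay above all other libraries, with log2 fold changes of 2.06 (SE 0.31, adjusted p = 1.6e-07) in the *SET1* strain and 1.76 (SE 0.31, adjusted p = 8.9e-06) in the *SET1-G990E* strain. *BST1*, which acts in quality control of GPI-anchored proteins and faces *STE2*, had 51.5, 42.2 and 53.3 in the *SET1* strain, 70.6, 65.9 and 45.6 in the *SET1-G990E* strain, against 29.6, 19.9 and 17.1 in WT, with log2 fold changes of 1.15 in the *SET1* strain and 1.46 in the *SET1-G990E* strain. *BTN2*, which sorts misfolded proteins, rose on both strands. The antisense strand had 36.8, 44.4 and 47.6 in the *SET1* strain, 59.8, 37.4 and 40.2 in the *SET1-G990E* strain, against 27.6, 12.7 and 17.1 in WT, and the antisense log2 fold changes of 1.18 and 1.27 stood beside sense changes of 1.85 and 1.83 in the *SET1* and *SET1-G990E* strains. *HPF1* fell in both strains, with 2735, 2631 and 2601 in the *SET1* strain and 2339, 2699 and 2529 in the *SET1-G990E* strain, against 4250, 4387 and 3857 in WT, and *HPF1'* had changes of -0.67 and -0.73 beside -0.65 and -0.72 for *HPF1*.

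*set1Δ* was also set directly against *jhd2Δ*. Antisense was higher in *set1Δ* at 152 members and lower at 138, 15.1% of those tested beside 13.7% of all tested rows (7.65% higher and 6.06% lower). Of the 152, 18 passed the filter on low counts only through the *set1Δ* libraries. Of the 138, 9 passed it only through the *jhd2Δ* libraries. For these members a low count in the other strain was in part set by the filter, and their values are a description. On the sense library scale the split was 102 and 229. *ISA1* had a log2 fold change of -2.69 (SE 0.38, adjusted p = 6.8e-09), *ADH6* of -2.16 (SE 0.32, adjusted p = 3.9e-08) and *AUS1* of 2.28 (SE 0.35, adjusted p = 1.3e-07) in this comparison, in each case as the values above show. *VTC3*, a subunit of the vacuolar polyphosphate polymerase, had 38.7, 23.1 and 19.8 in *set1Δ* and 7.25, 6.998 and 10.1 in *jhd2Δ*, a log2 fold change of 1.72 (SE 0.35, adjusted p = 6.7e-05). Of the 24 permeases, 8 were higher and 1 lower in *set1Δ*, with a list median of 0.37 beside -0.02 over all tested members. The lower one was *TAT1*, a call lost without *jhd2Δ* replicate 2 or 3 or *set1Δ* replicate 2. Among the 8, *GAP1*, the general amino acid permease, had 21.4, 24.4 and 17.3 in *set1Δ* and 5.18, 8.997 and 6.03 in *jhd2Δ*, a log2 fold change of 1.62 (SE 0.38, adjusted p = 7.8e-04). *CAN1*, the arginine permease, had 40.03, 62.9 and 44.6 in *set1Δ* and 17.6, 22.99 and 22.1 in *jhd2Δ*, a log2 fold change of 1.23 (SE 0.24, adjusted p = 2.7e-05). Neither sense transcript passed the test against WT in either deletion.

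*SET1-G990E* was set against *SET1* overexpression to compare the hyperactive allele with the wild-type enzyme. Antisense was higher in the *SET1-G990E* strain at 17 members and lower at 3, 1.04% of those tested beside 0.833% of all tested rows (0.682% higher and 0.152% lower). Of the 17, 1 passed the filter on low counts only through the *SET1-G990E* libraries. *EAF1* (chrIV:1191936-1194884, minus strand), the platform subunit of the NuA4 acetyltransferase, was the clearest. It had 24.9, 31.99 and 30.1 in *jhd2Δ*, 37.4, 46.2 and 37.2 in *set1Δ*, 19.96, 23.8 and 17.1 in the *SET1* strain, 65.7, 74.8 and 67.9 in the *SET1-G990E* strain, against 25.7, 32.6 and 23.4 in WT. The *SET1-G990E* libraries lay above all others, and the log2 fold change was 1.78 (SE 0.20, adjusted p = 1.5e-11) over the *SET1* strain and 1.35 (SE 0.19, adjusted p = 6.4e-09) over WT. Sense *EAF1* was not called, and neither was *GGA1*, which ends 203 bp away on the other strand. *RIM15*, a kinase for entry into quiescence, had 58.2, 51.2 and 47.4 in the *SET1-G990E* strain and 31.5, 10.8 and 20.96 in the *SET1* strain, a log2 fold change of 1.30 (SE 0.22, adjusted p = 5.2e-05). *FLO5*, a flocculin whose repeats are shared with other *FLO* genes, had 41.5, 43.1 and 44.7 in the *SET1-G990E* strain and 18.9, 20.6 and 20 in the *SET1* strain, a log2 fold change of 1.11 (SE 0.23, adjusted p = 0.0012). The count of 20 members fell to 8 without *SET1-G990E* replicate 2, and DESeq2 called 10.

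Since antisense reads may enter a gene from its 3′ end, each member was set beside the sense counts of the next annotated gene at the 3′ end of its host. That gene lay in the same orientation, called tandem here, for 1601 members and was convergent for 786. A tandem next gene is transcribed away from the member, and shares with it the region between the 2 genes. Of 94 tandem members called in *jhd2Δ*, 26 had a next gene whose sense counts were called in the same direction and 4 in the other direction, and of 1201 tandem members not called 12.2% had a next gene that was called. Over all sense rows tested, 12.2% were called in *jhd2Δ*. In the *SET1* strain the numbers were 16 and 1 of 65, beside 7.64% at uncalled members and 7.69% of all sense rows. In the *SET1-G990E* strain they were 23 and 3 of 97, beside 12.8% and 12.0%. In *set1Δ* they were 18 and 6 of 164, beside 8.13% and 8.58%. For convergent members the numbers with the same and the other direction were 7 and 3 of 39 in *jhd2Δ*, 4 and 3 of 86 in *set1Δ*, 4 and 0 of 15 in the *SET1* strain and 10 and 1 of 40 in the *SET1-G990E* strain. In that order, 25.6%, 8.14%, 26.7% and 27.5% of called convergent members had a next gene called in either direction. At uncalled convergent members the shares were 11.2%, 8.8%, 7.88% and 11.9%, and the differences were not tested. Both counts of a pair come from the same libraries.

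*MDH3* and the tandem gene *MRK1*, a glycogen synthase kinase 3 homologue that starts 608 bp beyond its end, moved together in each mutant. Sense *MRK1* counts were 270.5, 272 and 319 in *jhd2Δ*, 292, 584 and 274 in *set1Δ*, 220.2, 210.3 and 205 in the *SET1* strain and 219.9, 222 and 272 in the *SET1-G990E* strain, against 1102, 942 and 742 in WT. Here too *set1Δ* replicate 2 lay between the other *set1Δ* libraries and WT. The log2 fold changes of *MRK1* sense were -1.69, -1.28, -2.13 and -1.96, beside -1.82, -1.26, -2.13 and -1.54 for *MDH3* antisense. *OPI1* stands before *AIM17*, a mitochondrial protein gene 382 bp away, whose sense values were -0.97, -0.78, -0.97 and -1.09 in the same order of strains. At *HXT1* the next gene is *HXT4*, with sense values of -1.93, -0.68, -1.77 and -1.87, and at *HXT3* it is *HXT6*, with -1.60, -0.30, -2.09 and -1.96. *YFL052W*, a putative MAL-type activator, is the next gene both of *DAK2* (tandem) and of *YFL051C* (convergent), and its sense values were -1.71, -0.94, -1.79 and -1.77. In *set1Δ* this gene fell while *DAK2* antisense had a log2 fold change of 0.09 and was not called. *YLR179C* precedes *TFS1*, an inhibitor of carboxypeptidase Y, with -0.76, -0.40, -0.82 and -0.90, called in all but *set1Δ*.

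Other large changes had no call in the same direction at the next gene in the strains whose values are given here. The gene after *MTH1* is *PMP3*, a small membrane protein, with sense log2 fold changes of -0.07 in *set1Δ* and -0.29 in the *SET1-G990E* strain. *MTH1* antisense rose most in *jhd2Δ*, for which the *PMP3* value is not given here. After *ISA1* comes *HSP104*, the disaggregase, which was called as lower in *jhd2Δ* (-0.67) where *ISA1* antisense rose. The *HSP104* value in the *SET1-G990E* strain, where *ISA1* antisense also rose, is not given here. After *PHO84* comes *TUB3*, with 0.10 in *jhd2Δ* and 0.59 in *set1Δ*, the second called as higher. *YAL018C* faces the remodeller gene *FUN30*, which had 0.42 in *set1Δ* and was not called.

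**Figure D5:**
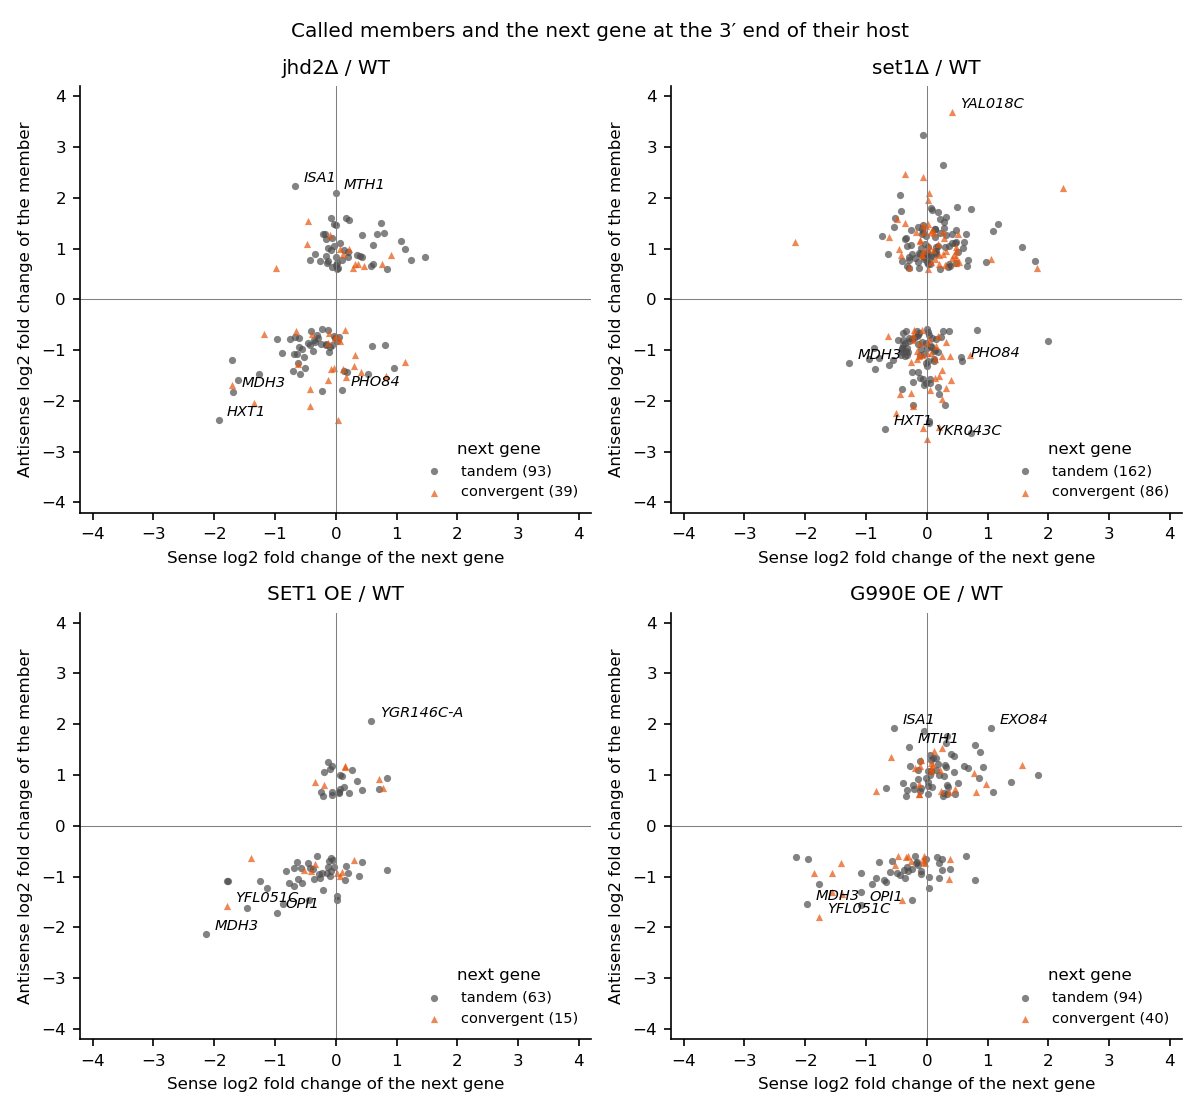
For the members called in each mutant against WT (4 panels), the sense log2 fold change of the next gene at the 3′ end is on the x axis and the antisense log2 fold change of the member on the y axis, with circles for tandem and triangles for convergent next genes. Members within 5 kb of *SET1*, *JHD2* or *URA3* are not drawn. *MDH3* lies at low values on both axes in all 4 panels, while *ISA1*, *MTH1* and *YAL018C* lie high on the y axis near 0 on the x axis or below.

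Sense counts of the host genes themselves were set beside the antisense calls in the same way. Of 132 members called in *jhd2Δ* whose host gene was tested, 11 hosts were called in the same direction and 15 in the opposite one, and of uncalled members 12.0% had a called host. In *set1Δ* the numbers were 14 and 21 of 249, beside 8.12%. In the *SET1* strain they were 5 and 4 of 79, beside 8.52%, and in the *SET1-G990E* strain 11 and 14 of 134, beside 11.8%. Most called members thus had a host gene that did not pass the test. A host called in either direction was found at 19.7%, 14.1%, 11.4% and 18.7% of called members in that order of strains. This was higher than at uncalled members each time, and the difference was not tested. *PHO84*, *MTH1*, *HXT4* and *OPT2* are members with opposite calls on the 2 strands in at least 1 strain, and *BTN2*, *HXT10*, *DAN1* and *YAL018C* members with calls in the same direction.

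The share of members called varied with the level of antisense relative to sense. Among members with antisense under 1% of sense, 5.07% of those tested were called in *jhd2Δ*, 9.66% in *set1Δ*, 1.45% in the *SET1* strain and 2.90% in the *SET1-G990E* strain. Between 1% and 5% of sense the shares were 6.48%, 12.1%, 3.49% and 6.48% in the same order. They were 8.62%, 15.0%, 5.67% and 10.8% between 5% and 20%, and 9.04%, 21.1%, 6.63% and 6.63% between 20% and 100%. Among those with antisense above sense the shares were 8.77%, 16.7%, 12.3% and 15.8%. Only in the *SET1* strain did the share rise from each class to the next. The first class also had a lower antisense level, with a median of 4.21 counts per kb, and the part of depth in this was not tested.

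Members at the engineered loci need separate reading. *SET1* antisense was at 0 reads in each *set1Δ* library, where the gene is deleted, and had 70, 52 and 71 reads in the *SET1* strain and 86, 82 and 85 in the *SET1-G990E* strain, against 13, 16 and 12 in WT. The plasmid carries a second copy of *SET1* with far more sense reads, and antisense at 0.214% of sense over all libraries was among the lowest shares. *JHD2* antisense had 1, 0 and 0 reads in *jhd2Δ* against 11, 16 and 10 in WT. *URA3*, the marker of the overexpression plasmid, was called as higher on the antisense strand in both overexpressing strains. These 3 are counted among the calls above.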

How the data were processed

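RNA was depleted of rRNA and made into strand-specific libraries, and per the submitters' notes and methods the authors used Novoalign 2.8.1 for alignment to sacCer3 and USeq for counting reads per gene on each strand. The authors deposited raw counts per gene, sense and antisense apart, and these counts were the values analysed. The deposited FPKM values, which the authors computed from the same counts, were not analysed, and the deposited log2 ratios and adjusted-p scores hold the authors' own comparisons and were not used. Regularized log2 counts and genes that the authors set apart in lists of their own were not used either.

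Members were chosen by the rule given at the start. Members, gene lists and tests were chosen with earlier results of these data known. Antisense counts of all rows were fitted with edgeR 4.0.16 (quasi-likelihood test, TMM normalization, filterByExpr with a minimum count of 10), with 1 fit over the 15 libraries and Benjamini-Hochberg adjustment over all 2640 tested rows. Sense counts were fitted the same way. A call needed an adjusted p below 0.05 and a 1.5-fold change. The 3 cultures of a strain are described as independent. Depths are given as ranges in the report, and members with few counts have wide errors, shown as the SE.

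The genes named were the 10 highest per kb, the 10 largest rises and falls of each mutant against WT among called members without overlap between the groups, the 5 largest of each other comparison, members with antisense RNAs described by name, up to 4 called members of each other gene list, members called the same way in all 4 mutants and those next to the thresholds, and the text gives a selection of them. Sequences were read from the RefSeq R64 genome, where 5055 of 5074 rows found by name had identical coordinates. Alternatives were DESeq2 1.42.0, a test of the 1.5-fold threshold itself, other scalings and filters, a replicate block, fits of 2 strains only and leaving out each library.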

Additional observations from a re-analysis of the deposited data

Results flagged for a closer look

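At 5 members antisense moved in opposite directions in the 2 deletions. Each was called against WT in both, and the direct test of *set1Δ* against *jhd2Δ* passed (edgeR's quasi-likelihood test, adjusted over all tested rows). The 2 comparisons with WT share the WT libraries. Against WT, DESeq2 did not make the calls of *FLO10* in *jhd2Δ*, *YDR061W* in *set1Δ* and *SDS24* in both, and gave no adjusted p for *YCL048W-A* in *jhd2Δ*. The log2 fold change of *set1Δ* over *jhd2Δ* was 2.77 at *YCL048W-A*, 2.01 at *FLO10*, 1.78 at *SKN1*, -1.52 at *YDR061W* and -1.69 at *SDS24*.

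*SKN1* (chrVII:775193-777508, plus strand), which acts in beta-glucan synthesis of the cell wall, had 26.9, 35.99 and 41.2 in *jhd2Δ*, 116, 127 and 115 in *set1Δ*, 38.9, 30.3 and 27.6 in the *SET1* strain, 35.7, 28.5 and 35.7 in the *SET1-G990E* strain, against 68.1, 60.7 and 64.02 in WT. The 3 groups of *set1Δ*, *jhd2Δ* and WT did not overlap. In log2 terms this was 0.89 (SE 0.15, adjusted p = 2.7e-06) in *set1Δ* and -0.88 (SE 0.19, adjusted p = 2.7e-04) in *jhd2Δ*, and both calls were kept without any 1 library. Both overexpressing strains were called as lower too, with -0.99 in the *SET1* strain and -0.95 in the *SET1-G990E* strain. The sense transcript was called in none of the 4 mutants.

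*FLO10* (chrXI:646356-649865, plus strand), a flocculin with repeats shared with related genes, had 49.4, 74.5 and 56.99 in *set1Δ*, 11.4, 18.99 and 14.1 in *jhd2Δ*, against 31.6, 25.4 and 27.1 in WT. Its call in *jhd2Δ* (-0.90 on the log2 scale) was lost without *jhd2Δ* replicate 1 or 3 or WT replicate 1, while that in *set1Δ* (1.11) was kept. *YCL048W-A*, a small gene of unknown function, had 33.4, 26.96 and 24.8 in *set1Δ*, 3.11, 3.999 and 5.02 in *jhd2Δ*, against 8.88, 14.5 and 10.8 in WT, with log2 fold changes of 1.29 in *set1Δ* and -1.47 in *jhd2Δ*, the second lost without *jhd2Δ* replicate 1 or 2 or WT replicate 2. The next gene, *SPS22*, which acts in the spore wall, had sense log2 fold changes of 0.65 in *set1Δ* and -0.59 in *jhd2Δ*, both called.

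*YDR061W* (chrIV:574164-575783, plus strand), an ABC-type protein gene, had 29.4, 20.5 and 29.7 in *set1Δ*, 75.6, 82.97 and 70.3 in *jhd2Δ*, against 39.5, 48.9 and 45.99 in WT. Antisense rose in *jhd2Δ* (0.76 on the log2 scale), and its fall in *set1Δ* (-0.76) was lost without *set1Δ* replicate 2 or WT replicate 2. *SDS24*, which acts in cell separation and endocytosis, had 9.34, 15.4 and 9.91 in *set1Δ*, 42.5, 34.99 and 35.2 in *jhd2Δ*, against 20.7, 19.9 and 29.8 in WT. Its log2 fold change of 0.67 (SE 0.22, adjusted p = 0.047) in *jhd2Δ* was lost in 11 of the 15 fits that left out 1 library, and that of -1.02 in *set1Δ* without *set1Δ* replicate 1 or 3 or WT replicate 3.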

How the results depend on the processing

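Of the members called in *jhd2Δ*, *set1Δ*, the *SET1* strain and the *SET1-G990E* strain against WT, in *set1Δ* against *jhd2Δ* and in *SET1-G990E* against *SET1*, the numbers were 134, 255, 83, 138, 290 and 20 with edgeR. In that order, DESeq2 gave 62, 132, 34, 73, 142 and 10, and a test of the 1.5-fold threshold itself gave 15, 48, 8, 21, 71 and 1. A filter of 50 counts in 3 libraries, which left 291 members, gave 50, 69, 36, 55, 77 and 17. With sense library sizes the last comparison had 36 members. Leaving out 1 library gave 92 to 139, 201 to 260, 43 to 83, 96 to 142, 200 to 303 and 8 to 21. Antisense counts per 100 sense counts were 2.23, 1.93, 2.25, 2.44 and 2.32 in *jhd2Δ*, *set1Δ*, the *SET1* strain, the *SET1-G990E* strain and WT without the 1% of genes highest in sense, and 1.49, 1.28, 1.53, 1.66 and 1.53 without the 10 members highest in antisense. The cause of these differences was not tested, except that a stricter filter tests fewer members.

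No call of a named member changed direction under the alternatives run. The split of rises and falls did turn in *set1Δ*, against WT or *jhd2Δ*, on the sense library scale, as given above. It also turned with the filter of 50 counts in 3 libraries, to 27 rises and 23 falls in *jhd2Δ* and 20 and 16 in the *SET1* strain. With that filter it was 33 and 36 in *set1Δ* against WT and 27 and 50 against *jhd2Δ*. DESeq2 gave 33 rises and 29 falls in *jhd2Δ*. Without WT replicate 2 or 3 the *SET1-G990E* strain had 51 and 52 or 62 and 63. Some other settings left the split about even. Of 274 calls of named members, 274 were kept with RLE scaling, 250 with sense library sizes, 251 with no filter, 89 with the test of the 1.5-fold threshold itself and 224 to 262 when 1 library was left out. DESeq2 gave an adjusted p for 191 of them and kept 139. With the replicate number as a block the counts were 137, 256, 84, 140, 296 and 22, and 274 of the named calls were kept. The numbers share no stated day or batch, and same-numbered libraries did not deviate together (r -0.044 to 0.066 over 30 pairs), so they name cultures only. Depth limits the members under about 10 counts, 1011 of 2390, of which many could not be tested.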

Other observations

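Cell wall protein genes gave 21 tested members. In *jhd2Δ* 2 rose and 2 fell, in *set1Δ* 4 rose and 2 fell, and in each overexpressing strain *HPF1* alone was called, as lower. The rises in *set1Δ* were *DAN1*, *FLO10*, *TIR2* and *SAG1*. Of these, *DAN1* and *TIR2* passed the filter on low counts only through the *set1Δ* libraries, so their values are a description. *SAG1* (chrX:442909-444861, minus strand), the alpha-agglutinin gene that a cells do not use, had 32.1, 31.99 and 37.2 in *jhd2Δ*, 77.4, 75.7 and 53.3 in *set1Δ*, 19.96, 13 and 25.7 in the *SET1* strain, 40.7, 43.1 and 40.2 in the *SET1-G990E* strain, against 34.5, 30.8 and 30.7 in WT. The *set1Δ* libraries lay above all others, with a log2 fold change of 1.10 (SE 0.20, adjusted p = 6.5e-06) over WT. Against the *SET1* strain, *SAG1* antisense in the *SET1-G990E* strain had a log2 fold change of 1.06 (SE 0.23, adjusted p = 0.0022), a call lost without *SET1* replicate 2. *TIR2*, a mannoprotein of cold and anaerobic growth, had 16.01, 26.96 and 13.6 in *set1Δ*, against 7.898, 6.34 and 8.12 in WT, a log2 fold change of 1.33 (SE 0.38, adjusted p = 0.0075) that was lost without *set1Δ* replicate 2. The list medians were 0.09, -0.11, -0.13 and 0.17 in *jhd2Δ*, *set1Δ*, the *SET1* strain and the *SET1-G990E* strain.

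Meiosis and sporulation genes, usually silent in growing cells, gave 26 tested members with 1 call in each mutant, namely a fall at *DMC1* in *jhd2Δ*, a rise at *SPS1* in *set1Δ* and falls at *SPR1* in the *SET1* strain and *REC102* in the *SET1-G990E* strain. Leaving out 1 library at a time lost each of these 4 calls in at least 2 of the 15 fits, and that of *SPS1* in 14 of them. Ribosome biogenesis genes, which are strongly expressed in growing cells, gave 14 tested members, of which *NOP58* rose in both deletions and *DRS1* in the *SET1-G990E* strain, a call lost without any of 5 single libraries, the 3 WT libraries among them. The *NOP58* call in *set1Δ* was lost without *set1Δ* replicate 2 or WT replicate 2. A list of genes whose antisense RNAs are known by name, which does not hold *TAT1*, gave 9 tested members, of which 1 fell in *jhd2Δ*, 2 fell in *set1Δ* and 1 rose in the *SET1* strain, and none was called in the *SET1-G990E* strain. These are the calls of *PHO84*, *HMS2* and *PHO5* given above. DESeq2 did not make the calls of *TIR2* in *set1Δ*, *SPR1* in the *SET1* strain and *REC102* in the *SET1-G990E* strain, and gave no adjusted p for *SPS1* and *DRS1*. *SPS1* passed the filter on low counts only through the *set1Δ* libraries, as *TIR2* and *DAN1* did, so its rise is a description.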
